A study of Mus musculus with 6 samples.

Results

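Somatostatin (Sst), galanin (Gal) and neurotensin (Nts) are neuropeptide genes of the preoptic area (POA) of the hypothalamus. They were followed here together with 7 genes used as markers of Sst or other GABA neurons, Crhbp, Chodl, Elfn1, Calb1, Reln, Nxph1 and Synpr, in cold-sensitive and cold-insensitive POA neurons of the mouse. These 10 genes, of 9583 in the table, were chosen by name with the levels of Sst and Gal in the present libraries already known. The difference between the types of neuron in these genes is therefore given as a description, with no p-value for any of them, as is the question of how far each gene follows Sst. Primary neurons were dissociated from the POA of naive wild-type C57Bl/6J mice aged 6-14 weeks, cultured on coverslips, loaded with the calcium dye Fura-2 and cooled to about 10 °C. Neurons in the top 7% of cold response amplitude were collected singly and pooled as cold-sensitive, and neurons in the bottom 14% as cold-insensitive. Each type has 3 biological replicates (3 pools of about 100-200 neurons), and RNA sequencing of each pool gave 1 library. No group carried a transgene or received a drug.

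Neuropeptides are cut from precursor proteins, stored in dense-core vesicles and released to act on G protein-coupled receptors. Somatostatin dampens secretion and neuronal firing. Sst marks a large class of GABA neurons in the forebrain, and Gal and Nts mark populations of POA neurons linked to sleep, body temperature and parental care. Of the co-markers, Crhbp encodes a secreted protein that binds corticotropin-releasing hormone, and Chodl encodes chondrolectin, a membrane lectin of a sparse class of cortical Sst neurons. Elfn1 encodes a postsynaptic adhesion protein that recruits metabotropic glutamate receptors to synapses onto Sst neurons. Calb1 encodes the calcium buffer calbindin, Reln the extracellular matrix protein reelin, Nxph1 a secreted ligand of neurexins, and Synpr the synaptic vesicle protein synaptoporin.

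The Sst promoter is a textbook target of the transcription factor CREB, which binds the cyclic AMP response element (CRE), a palindrome spelled TGACGTCA. The stretches before the start sites of the peptide genes and of Crhbp are printed to show where this element and its core lie in the members that hold either. They are the 250 bases before the RefSeq start site, 5′ to 3′ on the strand of the gene, all on the minus strand of GRCm38.p6, with capitals for the CRE or its core TGACG on either strand. The core lies within the CRE, so both searches mark the same bases in Sst. Gene spans given below come from another annotation, GENCODE, and those of Sst, Nts and Crhbp reach into their stretches. Positions counted from the start therefore hold for the RefSeq start only. The stretch of Sst is chr16:23890845-23891094, that of Gal chr19:3414545-3414794, that of Nts chr10:102490419-102490668 and that of Crhbp chr13:95444832-95445081.
Sst: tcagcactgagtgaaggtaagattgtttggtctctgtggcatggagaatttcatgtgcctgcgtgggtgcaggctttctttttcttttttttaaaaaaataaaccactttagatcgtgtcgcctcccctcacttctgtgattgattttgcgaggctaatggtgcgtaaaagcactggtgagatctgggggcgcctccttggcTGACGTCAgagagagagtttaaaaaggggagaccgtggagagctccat
Gal: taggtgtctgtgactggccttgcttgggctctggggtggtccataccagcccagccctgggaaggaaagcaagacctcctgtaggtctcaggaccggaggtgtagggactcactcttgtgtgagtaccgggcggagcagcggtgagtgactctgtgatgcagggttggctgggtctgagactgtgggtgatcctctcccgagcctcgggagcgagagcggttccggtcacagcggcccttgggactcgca
Nts: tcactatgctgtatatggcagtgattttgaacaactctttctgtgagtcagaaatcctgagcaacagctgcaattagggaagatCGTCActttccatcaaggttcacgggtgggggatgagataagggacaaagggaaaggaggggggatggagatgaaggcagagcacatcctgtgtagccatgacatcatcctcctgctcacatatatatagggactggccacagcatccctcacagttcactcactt
Crhbp: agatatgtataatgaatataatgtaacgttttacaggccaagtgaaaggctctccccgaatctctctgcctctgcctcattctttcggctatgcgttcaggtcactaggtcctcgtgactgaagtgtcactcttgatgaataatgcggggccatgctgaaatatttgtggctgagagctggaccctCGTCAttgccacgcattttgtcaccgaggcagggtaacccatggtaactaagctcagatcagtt

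The search covered 300 bases a promoter, from 250 before to 50 after the start. A full CRE was found in Sst, with its first base at position -48 from the start site, and in none of the other members with a promoter sequence. A full CRE was present in 1.79% of all 32851 RefSeq promoters. The core alone was found in Nts at -166, in Crhbp at -64 and in Gal at position 20 after the start, outside the stretch printed. This core occurs in 20.8% of all promoters, and Chodl, Elfn1, Reln, Nxph1 and Synpr held none in this window. Promoters were matched for 9 of the 10 genes, all but Calb1. Such a match is a description of the letters and not evidence of binding.

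The libraries held 3316441 to 6818554 counted reads, and the log2 profiles of libraries correlated at 0.849 to 0.908 within a type and at 0.805 to 0.890 between types. Levels are given as RPM, reads of a gene per 1000000 reads of the effective library size. Every gene in the table has at least 1 RPM in every library, so a gene switched off in one type could have been filtered out before deposit. All 8 neuronal markers on the list used here were measured, and 0 of them passed the test between types (edgeR). Of these markers 3 had an unadjusted p under 0.05 (edgeR), against 10.7% of all genes. DESeq2 called 0 of them, and the fit with the replicate block called 1, Nefl, lower. No marker of microglia, endothelium or mural cells (0 of 10, 0 of 8 and 0 of 9) was measured. Markers of oligodendrocyte precursors (7 of 14), oligodendrocytes (2 of 8) and astrocytes (3 of 10) were, and are given beside the results they move with. The median log2 fold change over all genes was 0.0013. In pooled RNA, fewer cells of a kind and less RNA per cell cannot be told apart.

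Sst, whose peptide restrains secretion and firing, had the widest gap of the 10 genes. Its level was 863, 503 and 321 RPM in cold-insensitive pools 1, 2 and 3 and 2.03, 2.15 and 1.80 RPM in cold-sensitive pools 1, 2 and 3. Every cold-insensitive pool thus held at least 149 times the level of any cold-sensitive pool, and the farthest pair of pools differed by 480 times. The means were 563 ± 276 and 1.99 ± 0.18 RPM (SD, n = 3 each), so the cold-sensitive mean was 0.354% of the cold-insensitive mean. The fitted log2 fold change, cold-sensitive over cold-insensitive, was -8.15 ± 0.40 (SE).

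The cold-sensitive level of Sst rests on 7, 7 and 12 reads. Exact Poisson 95% intervals on these counts run from 0.815 to 4.18, from 0.865 to 4.44 and from 0.929 to 3.14 RPM, and cover counting error only. The 3 pools were not distinguishable at this depth. Among the 9583 genes Sst ranked 80, 257 and 628 by level in the cold-insensitive pools and 9425, 9415 and 9480 in the cold-sensitive pools, close to the lowest levels the table holds. The cold-insensitive pools differed from one another by far more than counting error, with 5068, 2938 and 1635 reads and a ratio of 2.69 between pools 1 and 3. The Sst gene lies on chr16:23889573-23890958 on the minus strand (GRCm38), and its exons, like those of the other 9 genes, overlap no other protein-coding gene.

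**Figure D1:**
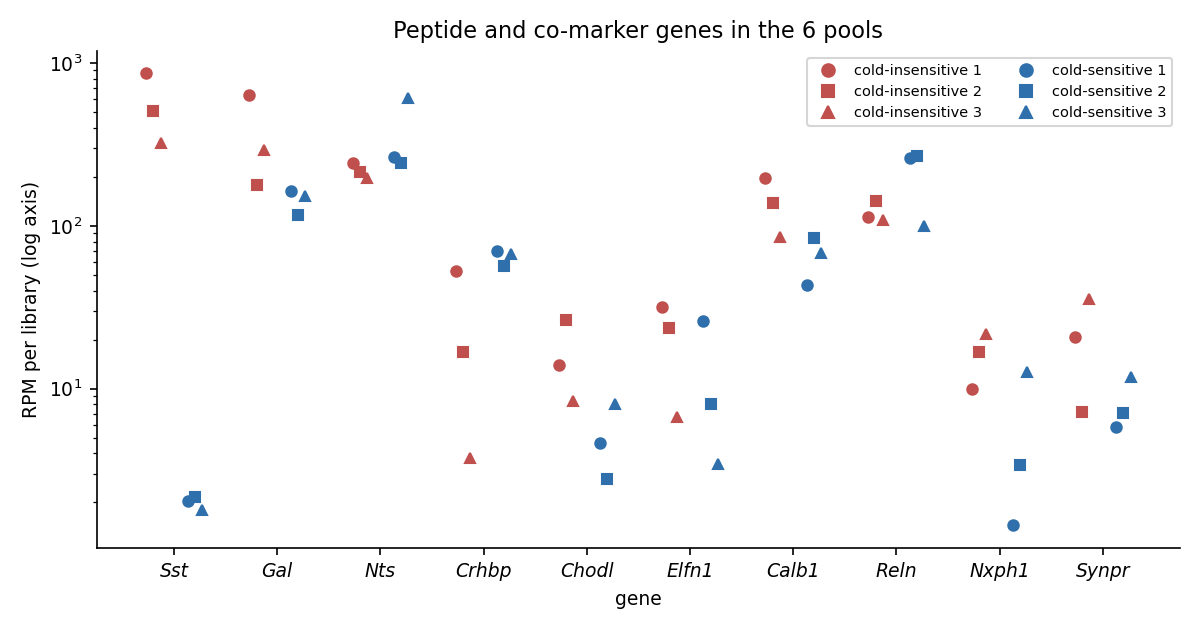
Level of each peptide and co-marker gene in RPM (log axis) in the 6 pools, with red for cold-insensitive, blue for cold-sensitive and 1 marker shape per replicate number. Sst lies at 321-863 RPM in the cold-insensitive pools and at 1.80-2.15 RPM in the cold-sensitive pools, and no other of these genes shows a gap of that width.

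Of the 10 genes, 7 had a lower and 3 a higher fitted level in cold-sensitive pools. Sst and Gal (2 of 10) passed the threshold of an adjusted p of 0.05 over all genes in the lower direction, which 0.835% of all genes did, and 0 of 10 passed in the higher direction, which 0.334% did (edgeR). At an unadjusted p under 0.05 there were 7 of 10, against 10.7% of all genes, and DESeq2 also called Sst and Gal, among the 1.59% of all genes it called lower. Since the genes were chosen on this contrast, these counts are no evidence about them and nothing is read from them. The pools of the types did not overlap for Sst, Gal, Chodl and Calb1, lower in cold-sensitive pools, a pattern that 8.2% of all genes had. They did not overlap for Nts and Crhbp, higher in cold-sensitive pools, a pattern that 7.85% of all genes had. Without Sst, the median log2 fold change of the remaining 9 genes was -1.10.

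Gal, which encodes an inhibitory peptide of POA sleep and parenting neurons, measured 635, 177 and 293 RPM in cold-insensitive pools 1, 2 and 3. In cold-sensitive pools 1, 2 and 3 it measured 164, 116 and 153 RPM. The types did not overlap, but cold-insensitive pool 2 lay only a little above cold-sensitive pool 1, and cold-insensitive pool 1 stood far above the rest. The means were 368 ± 238 and 144 ± 25.1 RPM (SD, n = 3 each) and the log2 fold change was -1.35 ± 0.32 (SE), 16.6% of that of Sst. Gal thus stayed at over 100 RPM in every cold-sensitive pool, where Sst was near the floor of the table, and 283 genes had a lower fold change than Gal. Without cold-insensitive replicate 1 the log2 fold change of Gal was -0.71. Gal no longer passed the threshold in that fit, without cold-sensitive replicate 2 or 3, or with a robust dispersion. Since Gal was chosen on this contrast, neither its call nor the loss of it is evidence about the gene. Gal lies on chr19:3409915-3414544 on the minus strand.

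Nts, whose peptide lowers body temperature when given to the brain, did not follow Sst. Its level was 242, 214 and 198 RPM in cold-insensitive pools 1, 2 and 3 and 266, 243 and 609 RPM in cold-sensitive pools 1, 2 and 3. The types came within 1 RPM of overlapping, at 241.9 against 242.6 RPM, and cold-sensitive pool 3 stood alone above the other 5. The means were 218 ± 22.4 and 373 ± 205 RPM (SD, n = 3 each), with a log2 fold change of 0.78 ± 0.28 (SE). Without cold-sensitive replicate 3 it was 0.22. Nts lies on chr10:102481756-102490486 on the minus strand.

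The makeup of the peptide reads was accordingly different in the types. Sst gave 49.6% of the reads of Sst, Gal and Nts together in cold-insensitive pool 1 (Wilson 95% interval 48.7-50.6%), 56.3% in pool 2 (54.9-57.6%) and 39.6% in pool 3 (38.1-41.1%). In cold-sensitive pools 1, 2 and 3 it gave 0.469% (0.227-0.965%), 0.597% (0.289-1.23%) and 0.235% (0.135-0.411%). The share of Nts was 13.9, 23.9 and 24.3% in the cold-insensitive pools and 61.6, 67.3 and 79.8% in the cold-sensitive pools. Gal, in contrast, had overlapping shares, with 36.5, 19.8 and 36.1% against 37.9, 32.1 and 20.0%. These are shares of reads and not of molecules, since the transcripts differ in length. They also share a common total, so fewer Sst reads alone raise the shares of Gal and Nts. In RPM every cold-sensitive pool was below every cold-insensitive pool for Gal, and for Nts the types nearly overlapped.

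**Figure D2:**
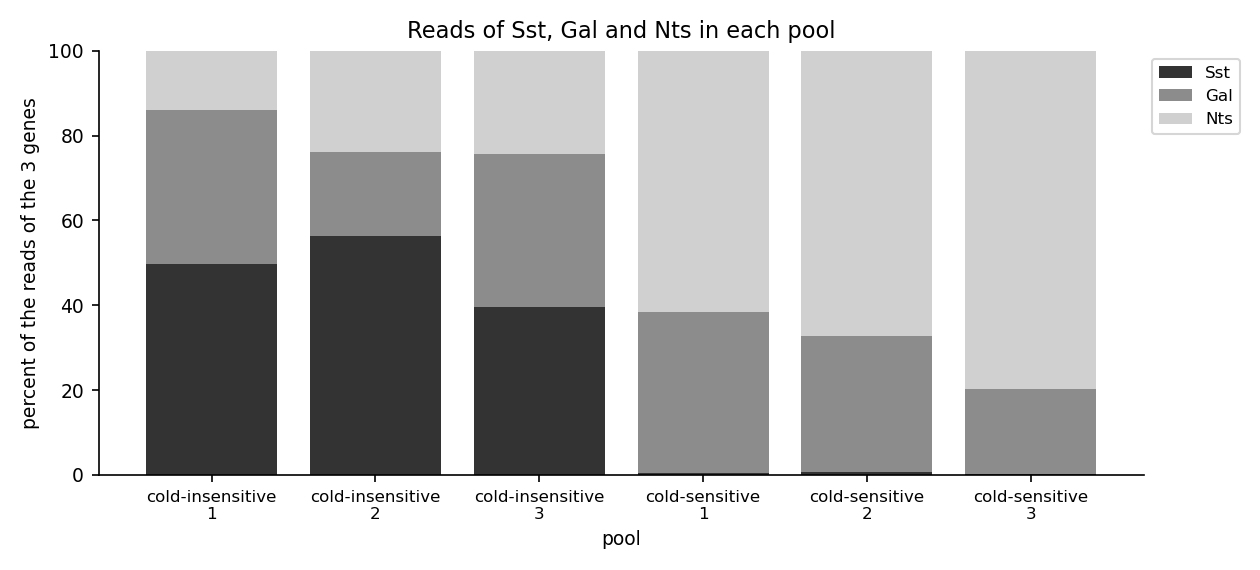
Percent of the reads of Sst, Gal and Nts that each gene contributed in each of the 6 pools, as bars stacked to 100%. Sst makes up 39.6-56.3% in the cold-insensitive pools and 0.235-0.597% in the cold-sensitive pools, and Nts makes up most of the reads in the latter.

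Crhbp, the binding protein that buffers corticotropin-releasing hormone, moved against Sst between the types and with Sst among the cold-insensitive pools. It measured 52.5, 16.8 and 3.73 RPM in cold-insensitive pools 1, 2 and 3 and 70.1, 56.9 and 66.8 RPM in cold-sensitive pools 1, 2 and 3. The cold-sensitive pools were close together and all above the cold-insensitive ones, which differed by 14.1 times between pools 1 and 3. The means were 24.3 ± 25.2 and 64.6 ± 6.87 RPM (SD, n = 3 each), and the log2 fold change was 1.41 ± 0.59 (SE). It ran from 0.90 without cold-insensitive replicate 3 to 2.65 without cold-insensitive replicate 1. The SD of its log2 level among the cold-insensitive pools, 1.75, was at percentile 99.4 of all genes. Crhbp lies on chr13:95431371-95444924 on the minus strand.

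Calb1, the calcium buffer of many Sst neurons, measured 197, 138 and 85.4 RPM in cold-insensitive pools 1, 2 and 3. In cold-sensitive pools 1, 2 and 3 it measured 43.4, 84.3 and 67.7 RPM, so cold-insensitive pool 3 and cold-sensitive pool 2 were nearly level. The means were 140 ± 55.8 and 65.1 ± 20.5 RPM (SD, n = 3 each), with a log2 fold change of -1.10 ± 0.34 (SE), 13.5% of that of Sst. Calb1 lies on chr4:15881264-15908064 on the plus strand.

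Reln, a matrix protein that many GABA neurons secrete, measured 114, 142 and 108 RPM in cold-insensitive pools 1, 2 and 3 and 262, 267 and 99.3 RPM in cold-sensitive pools 1, 2 and 3. Cold-sensitive pools 1 and 2 were above every cold-insensitive pool and cold-sensitive pool 3 was below all of them. The means were 121 ± 18.1 and 209 ± 95.2 RPM (SD, n = 3 each), and the log2 fold change was 0.79 ± 0.31 (SE). Reln lies on chr5:21884454-22344702 on the minus strand.

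The remaining 4 co-markers were low in both types, so their values carry more counting error. Chodl, the lectin of the sparse Sst class, measured 14.0, 26.2 and 8.45 RPM in cold-insensitive pools 1, 2 and 3. It measured 4.63, 2.77 and 8.09 RPM in cold-sensitive pools 1, 2 and 3. The types were separated only by the small step from 8.09 to 8.45 RPM, and the Poisson intervals of these 2 pools overlapped (6.08-10.6 and 6.11-11.4 RPM). Its log2 fold change was -1.63 ± 0.77 (SE), next to Sst the most negative of the 10 genes and 20.0% of that of Sst. Chodl lies on chr16:78930948-78951733 on the plus strand.

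Elfn1, the organiser of excitatory synapses onto Sst neurons, measured 31.9, 23.5 and 6.68 RPM in cold-insensitive pools 1, 2 and 3 and 26.1, 8.00 and 3.45 RPM in cold-sensitive pools 1, 2 and 3. Replicate 1 was the highest and replicate 3 the lowest in both types, and the types overlapped. Its log2 fold change of -0.74 ± 0.77 (SE) was smaller than its error. It ran from -1.88 without cold-sensitive replicate 1 to -0.28 without cold-insensitive replicate 1. Elfn1 lies on chr5:139907943-139974722 on the plus strand.

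Nxph1, the neurexin ligand, measured 9.88, 16.8 and 21.6 RPM in cold-insensitive pools 1, 2 and 3 and 1.45, 3.38 and 12.7 RPM in cold-sensitive pools 1, 2 and 3. Cold-sensitive pool 3 lay within the range of the cold-insensitive pools, above their pool 1, and the other cold-sensitive pools lay below all of them. The log2 fold change was -1.42 ± 0.81 (SE), and -2.73 without cold-sensitive replicate 3. Nxph1 lies on chr6:8948431-9249032 on the plus strand. Synpr, the vesicle protein, measured 20.8, 7.20 and 35.4 RPM in cold-insensitive pools 1, 2 and 3 and 5.79, 7.07 and 11.8 RPM in cold-sensitive pools 1, 2 and 3. Cold-insensitive pool 2 lay among the cold-sensitive pools, and the log2 fold change was -1.34 ± 0.74 (SE), and -0.75 without cold-insensitive replicate 3. Synpr lies on chr14:13284780-13616340 on the plus strand.

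**Figure D3:**
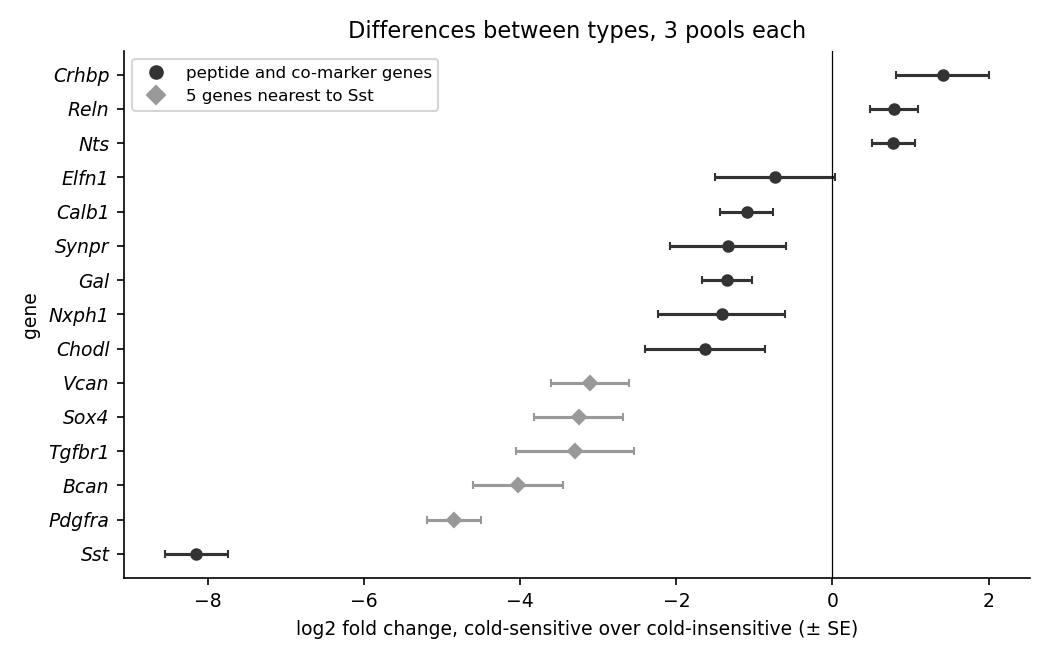
Fitted log2 fold change, cold-sensitive over cold-insensitive, of the 10 peptide and co-marker genes (black circles) and of the 5 genes nearest to Sst (grey diamonds), with bars for 1 SE from 3 pools each. Sst lies at -8.15, and the other members lie between -1.63 (Chodl) and 1.41 (Crhbp).

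Likeness to Sst was measured as the root mean square difference, over the 6 pools, between the centred log2(RPM + 1) values of a gene and those of Sst. A gene at the same level in every pool has a distance of 3.74 on this scale, and the median of all other genes was 3.76. Among the members Chodl (3.07), Nxph1 (3.09), Gal (3.17), Calb1 (3.20) and Synpr (3.31) were within the nearest 10% of genes, 958 in all. Elfn1 (3.40, rank 965) lay just outside. The gap of Sst between the types dominates this distance, so nearness need not mean a like order of pools within a type. Nxph1 overlapped between the types and had the reverse of the Sst order among the cold-insensitive pools. The lowest cold-sensitive counts of Chodl and Nxph1 were 9 reads (pool 2) and 5 reads (pool 1). Nts (4.08), Reln (4.09) and Crhbp (4.75) were farther from Sst than a gene that does not vary at all. So 6 of the 9 genes were nearer than such a flat gene, as were 4487 of all genes, and the nearest member, Chodl, ranked 188. Leaving out cold-insensitive replicate 1 reduced the 5 members within the nearest 10% to 3.

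The 5 genes of the table nearest to Sst were all genes outside the peptide and co-marker set, named by this distance. Their likeness to Sst is a description, since the same 6 pools define it, and those that are also precursor markers are counted with that list. Pdgfra, the growth factor receptor that defines oligodendrocyte precursors, was nearest (distance 1.40), with 361, 366 and 337 RPM in the cold-insensitive pools and 7.82, 7.69 and 20.1 RPM in the cold-sensitive pools. The proteoglycan genes Bcan (1.90) and Vcan (2.15), the transcription factor gene Sox4 (2.20) and the receptor gene Tgfbr1 (2.27) followed. Their log2 fold changes were -4.85 ± 0.35 (Pdgfra), -4.03 ± 0.58 (Bcan), -3.11 ± 0.50 (Vcan), -3.25 ± 0.57 (Sox4) and -3.30 ± 0.76 (Tgfbr1). Pdgfra, unlike Sst, varied little among the cold-insensitive pools, with an SD of its log2 level of 0.06 against 0.71.

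**Figure D4:**
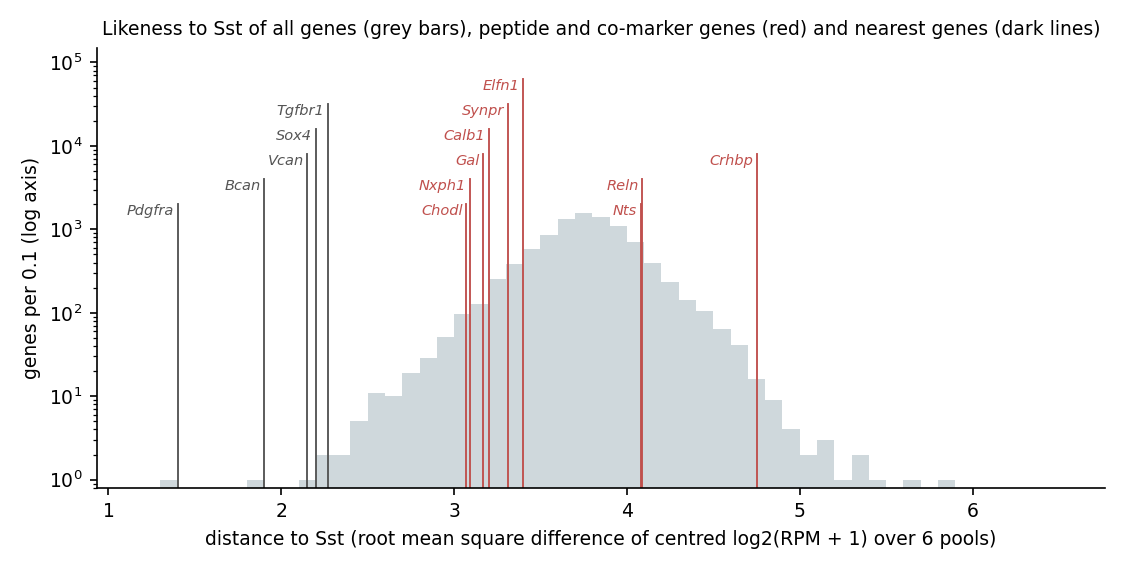
Number of genes per 0.1 of distance to Sst (grey bars, log axis), with red lines for the other peptide and co-marker genes and dark lines for the 5 nearest genes, the height of a line carrying no value. The 5 nearest genes lie from 1.40 to 2.27, the members from 3.07 to 4.75, and the bulk of genes near 3.76.

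Among the cold-insensitive pools Sst was highest in pool 1 and lowest in pool 3. Nts, Crhbp, Elfn1 and Calb1 (4 of 9) had the same order, which 19.2% of all genes had, and the same 4 genes had it in the deposited normalized values (19.0% of genes) and with library size alone (22.4%). For Nts the Poisson intervals of pools 2 and 3 overlapped (202-226 and 186-210 RPM), as did those of Elfn1 in pools 1 and 2 (27.5-36.8 and 19.7-27.8 RPM). Nxph1 had the reverse order, as did 20.6% of all genes. Gal was highest in pool 1 and lowest in pool 2.

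The summed levels of glial markers had the same order, though not every marker did. Vcan, Tnr, Ptprz1 and C1ql1 (4 of 7) of the oligodendrocyte precursor markers and Slc1a2 and Aldoc (2 of 3) of the astrocyte markers had it, against the 19.2% of all genes, whereas Pdgfra, Bcan, Lhfpl3 and Sox9 did not. By mean level over the 6 pools, the most abundant marker of each list was Ptprz1 (717, 438 and 296 RPM) and Slc1a2 (291, 85.3 and 74.6 RPM) in cold-insensitive pools 1, 2 and 3. The summed level of the 7 measured markers of oligodendrocyte precursors was 1779, 1372 and 1109 RPM in cold-insensitive pools 1, 2 and 3, against 445, 381 and 389 RPM in cold-sensitive pools 1, 2 and 3. That of the astrocyte markers was 348, 159 and 129 RPM against 129, 153 and 169 RPM, and the level of the myelin gene Mbp was 195, 48.7 and 16.1 RPM against 419, 143 and 74.2 RPM. The summed neuronal markers had the opposite order in the cold-insensitive pools, with 5346, 6160 and 8132 RPM, and held 6008, 8005 and 8279 RPM in the cold-sensitive pools. Map2 made up much of these sums, with 2501, 3403 and 4557 RPM in cold-insensitive pools 1, 2 and 3. Of the 8 neuronal markers only Map2, Stmn2 and Nefl had the opposite order, which 20.6% of all genes had. Neither the part of these cells in the levels of Sst and its co-markers nor that of the replicate was tested.

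**Figure D5:**
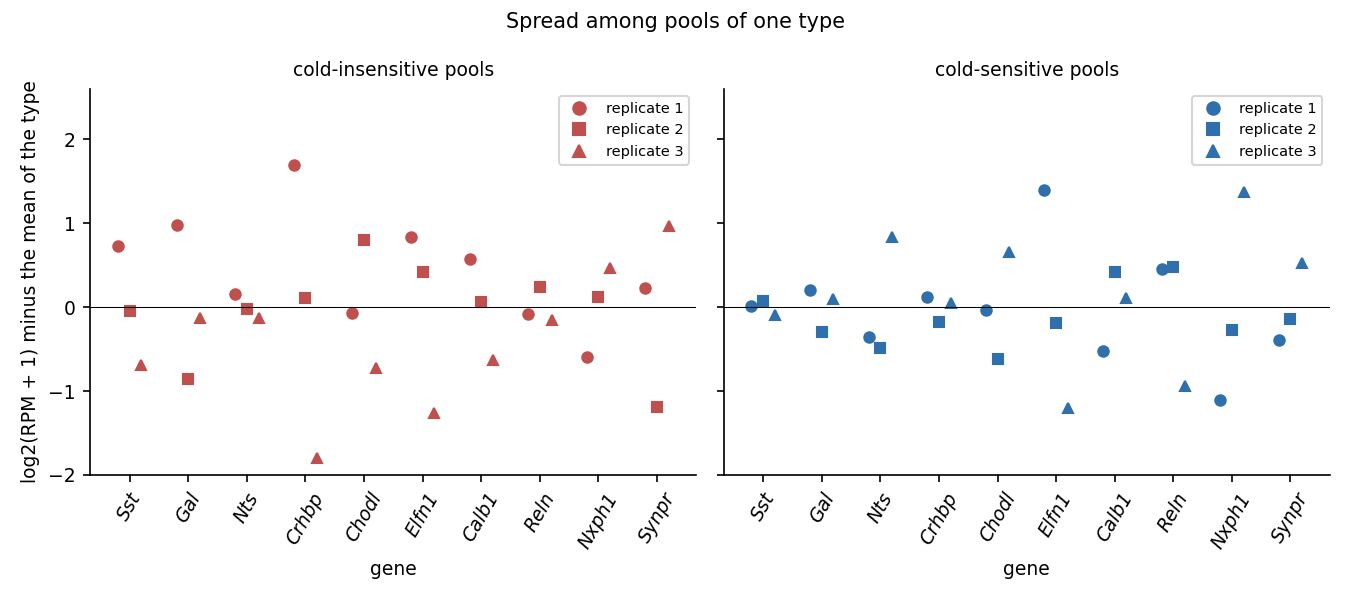
Deviation of log2(RPM + 1) from the mean of the type for each peptide and co-marker gene in the cold-insensitive (left) and cold-sensitive (right) pools, with 1 marker shape per replicate. Crhbp has the widest spread of the 10 genes in the cold-insensitive pools (SD 1.75), while Sst has the narrowest of the 10 in the cold-sensitive pools (SD 0.09), where it is near the floor.

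Per length of transcript, the order of the genes changed between the types chiefly through Sst. In RPM per kilobase of exon, Sst led in the cold-insensitive pools with 780 ± 383, followed by Gal with 467 ± 302 and Nts with 174 ± 18.0 (mean ± SD, n = 3). Sst and Gal overlapped, whereas Nts was below Gal and above Calb1 (28.9 ± 11.5) in every pool. In the cold-sensitive pools Nts led with 299 ± 165, next to Gal with 183 ± 31.8, whose pools overlapped those of Nts. Crhbp (35.9 ± 3.82) and Calb1 (13.4 ± 4.24) came next, each without overlap with the one above. Sst, at 2.76 ± 0.25, was the seventh of the 10 genes there, after Reln (8.81) and Elfn1 (3.00). From Calb1 downwards neighbours in the cold-insensitive order overlapped in their pools.

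Genes that belong to the same systems were listed by role, and tested over all 9583 genes (edgeR, adjusted p). Of all genes, edgeR called 0.334% higher and 0.835% lower and gave 10.7% an unadjusted p under 0.05. DESeq2 called 1.59% lower. Of 32 other neuropeptide precursors, 9 were measured, 1 rose and 1 fell, and their median log2 fold change was -0.43. Adcyap1, the precursor of the peptide PACAP, had 19.8, 122 and 140 RPM in cold-insensitive pools 1, 2 and 3 and 405, 393 and 403 RPM in cold-sensitive pools 1, 2 and 3, with no overlap. It rose by a log2 fold change of 2.10 ± 0.40 (adjusted p = 0.00652), a call not made with a robust dispersion (adjusted p = 0.39) or by DESeq2 (adjusted p = 0.105). Pnoc, the precursor of nociceptin, fell from 66.3, 163 and 238 RPM to 41.4, 31.7 and 61.9 RPM (log2 fold change -1.78 ± 0.38, adjusted p = 0.0205). Pnoc no longer passed when cold-insensitive replicate 2 (adjusted p = 0.112) or 3 (0.198) or cold-sensitive replicate 2 (0.107) was left out. The abundant precursors Vgf (-0.17 ± 0.21) and Pdyn (-0.43 ± 0.27) did not pass.

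Receptors for the 3 peptides were thinly represented. Of 11 receptors, Sstr1, Sstr2, Galr1 and Sort1 were measured, and 0 passed in either direction (edgeR, 0 at an unadjusted p under 0.05, 0 by DESeq2). Their median log2 fold change was 0.32, with 0.50 ± 0.39 for the galanin receptor gene Galr1 and 0.49 ± 0.35 for Sort1, whose protein sortilin binds neurotensin. Of the 6 genes for corticotropin-releasing hormone, the urocortins and their receptors, the system that Crhbp buffers, 0 were measured.

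Partners of the co-markers at the synapse and in the matrix gave few calls. All 9 genes of reelin reception and signalling were measured, 0 passed (edgeR, 1 at an unadjusted p under 0.05, 0 by DESeq2), and their median log2 fold change was -0.11. Pafah1b1, a dynein regulator, had 0.29 ± 0.21 and the kinase gene Fyn -0.60 ± 0.25. Of the neurexins and other neurexophilins 3 of 6 were measured and 0 passed (edgeR, 1 at an unadjusted p under 0.05, 0 by DESeq2), with -0.36 as their median and -0.69 ± 0.23 for Nrxn3. Of Elfn2 and the receptors that Elfn proteins bind, 3 of 5 were measured and 0 passed by edgeR (2 at an unadjusted p under 0.05), with a median of -1.42. Elfn2, the paralogue of Elfn1, measured 99.0, 76.6 and 49.1 RPM in the cold-insensitive pools and 18.5, 36.9 and 28.3 RPM in the cold-sensitive pools. Its log2 fold change was -1.42 ± 0.43 (adjusted p = 0.131), and DESeq2 called it (adjusted p = 0.0296). In the synaptophysin family of Synpr, 4 of 5 were measured and 0 passed (edgeR, 0 at an unadjusted p under 0.05, 0 by DESeq2), with a median of -0.23 and -0.33 ± 0.20 for Syp.

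Of 12 other calcium buffers and sensors 9 were measured, 0 rose and 1 fell, and their median log2 fold change was -0.33. Hpcal4, a neuronal calcium sensor of the hippocalcin family, fell from 337, 513 and 479 RPM to 269, 221 and 182 RPM (log2 fold change -0.99 ± 0.23, adjusted p = 0.0358), without overlap. Hpcal4 no longer passed when cold-insensitive replicate 2 (adjusted p = 0.275) or 3 (0.14) or cold-sensitive replicate 2 (0.12) or 3 (0.171) was left out. Calretinin (Calb2), a relative of calbindin that is also on the list of further Sst neuron markers below, had 0.08 ± 0.32. DESeq2 also called Caln1 higher.

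Further markers of Sst neurons gave no call by edgeR. Of 18 such markers 8 were measured and 0 passed by edgeR (2 at an unadjusted p under 0.05), with a median of -0.29. DESeq2 called Nos1 and Col25a1 lower. Tacr1 (1.24 ± 0.78), Unc13c (0.37 ± 0.52) and Calb2 (0.08 ± 0.32) had positive log2 fold changes, and the other measured markers negative ones. Of 19 transcription factors of the Sst and GABA lineage 12 were measured and 0 passed by edgeR, with a median log2 fold change of -0.96. Of the 12, 6 had an unadjusted p under 0.05 (edgeR), against 10.7% of all genes. Zeb2, which acts in migrating interneurons, measured 123, 155 and 89.8 RPM in the cold-insensitive pools and 57.6, 47.7 and 52.3 RPM in the cold-sensitive pools, without overlap. Its log2 fold change was -1.22 ± 0.32 (adjusted p = 0.0604). DESeq2 called 3 of these factors lower, Zeb2 (adjusted p = 0.00929), Nr2f2 and Prox1, against 1.59% of all genes. The fit with the replicate block called 1, Sox6. Not every factor was lower in cold-sensitive pools. Nkx2-1 (0.82 ± 0.88), Dlx2 (0.40 ± 0.78), Dlx1 (0.29 ± 0.70) and Dlx6 (0.07 ± 0.76) had positive log2 fold changes, and the other measured factors negative ones.

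Of 9 genes that mark galanin neurons of the POA 6 were measured, and 0 passed by edgeR (1 at an unadjusted p under 0.05, and 1 called lower by DESeq2), with a median of -0.52. Prlr, the prolactin receptor gene, had -0.68 ± 0.41.

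The genes of GABA synthesis, packaging, uptake and breakdown were all measured (5 of 5), and 0 passed (edgeR, 1 at an unadjusted p under 0.05, 0 by DESeq2), with a median log2 fold change of -0.14. Gad1 and Gad2, which make GABA, had log2 fold changes of -0.39 ± 0.23 and -0.12 ± 0.24. The gene at an unadjusted p under 0.05 was Slc32a1, the vesicular GABA transporter gene. It measured 124, 119 and 92.5 RPM in cold-insensitive pools 1, 2 and 3 and 63.4, 41.8 and 68.2 RPM in cold-sensitive pools 1, 2 and 3. The types did not overlap, with a log2 fold change of -0.95 ± 0.32 (edgeR, adjusted p = 0.211). Of 3 vesicular glutamate transporters 2 were measured, and 1 rose and 0 fell. Slc17a6 rose from 71.0, 113 and 150 RPM to 218, 284 and 291 RPM, without overlap (log2 fold change 1.25 ± 0.28, adjusted p = 0.0243). It did not pass with cold-insensitive replicate 1 (adjusted p = 0.121) or 2 (0.133) or cold-sensitive replicate 2 (0.0993) or 3 (0.095) left out.

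Of the oligodendrocyte precursor markers, 5 of the 7 measured fell and 0 rose, with a median log2 fold change of -2.07, against the 0.835% of all genes called lower. They were Pdgfra (adjusted p = 1.55e-09), Bcan (0.000514), Vcan (0.00127), Tnr (0.00746) and Ptprz1 (0.0478), and DESeq2 called the same 5. Tnr lost its call without cold-insensitive replicate 1 (0.0753) or cold-sensitive replicate 2 (0.0647) or 3 (0.0525), and Ptprz1 lost it without cold-insensitive replicate 1 (0.325) or 2 (0.159) or cold-sensitive replicate 1 (0.0896), 2 (0.116) or 3 (0.154). Other defining markers of these cells, among them Olig1, Olig2, Sox10 and Cspg4, are not among the measured genes. Mbp, a myelin gene, had a log2 fold change of 1.29 ± 0.56 (adjusted p = 0.382) and passed with the replicate block (adjusted p = 0.00218) and without cold-insensitive replicate 1 (2.70, adjusted p = 0.0346), while it was 0.31 without cold-sensitive replicate 1. The block also added Lhfpl3 to the precursor markers called lower. Of the 3 astrocyte markers measured 0 passed (edgeR, 0 at an unadjusted p under 0.05, 0 by DESeq2), with a median log2 fold change of -0.04. Of 6 markers of ependyma and tanycytes only Foxj1 was measured, with -1.30 ± 0.89, and it did not pass.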

How the data were processed

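RNA of pooled mouse POA neurons was sequenced in 6 libraries, 3 per type, prepared with a stranded total RNA kit. The methods give RNA integrity and concentration only as ranges, with integrity numbers from low to high and concentrations in picograms per microlitre. The part of RNA quality and input in the spread among pools was not tested. The authors used Trimmomatic 0.36 for trimming, STAR 2.5.4b for alignment to GRCm38.p6 and featureCounts (Subread 1.6.2, GENCODE release 16, default settings) to count reads on protein-coding genes. The default counts reads of either strand, so reads of an antisense transcript would be included. Deposited were raw counts and a normalized signal, which the authors made with edgeR 3.22.3 by scaling to effective library sizes. Its further columns, the mean per type and the authors' fold change with its direction and p-value, were not used. The table lists 9583 genes, with a lowest count of 4 and a lowest normalized value of 1.01, so genes near silence in either type are missing from it. Columns of per-sample values left without a sample numbered 0.

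The test was run in R 4.3.3 by edgeR 4.0.16 on the raw counts (TMM, glmQLFit in its legacy form, glmQLFTest, type as the only term, prior count 0.125) with Benjamini-Hochberg adjustment over all 9583 genes and a threshold of 0.05. SEs were taken as |log2 fold change| over √F. The fit was tested on simulated data. RPM use the TMM library sizes, and log2 levels a pseudocount of 1. Counting intervals are exact Poisson or Wilson intervals at 95% and cover counting error only. Gene coordinates and exon lengths come from GENCODE release 21 (GRCm38), and promoters from RefSeq.

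The members and lists were chosen with earlier results of these data known. Named are the members, the 5 genes nearest to Sst, and in each list up to 4 called genes and the 2 of highest level. Nos1, Col25a1, Nr2f2, Prox1, Sox6, Caln1, C1ql1, Sox9, Lhfpl3, Nefl, Stmn2 and Slc32a1 were named after their values were seen. The same holds for Tacr1, Unc13c, Nkx2-1, Dlx1, Dlx2 and Dlx6. Some listed genes are not reported here. By the methods, both types were collected from the coverslips of a biological replicate. Equal replicate numbers were therefore taken as pairs, although neither the methods nor the labels state that they match. Deviations from the type means correlated at 0.0446 to 0.0586 for equal numbers and at -0.0409 to -0.00724 for unequal numbers. A fit blocked on the replicate, other scalings, filters and dispersions, DESeq2 1.42.0, and fits without each library were the alternatives.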

Additional observations from a re-analysis of the deposited data

How the results depend on the processing

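All 10 peptide and co-marker genes kept the sign of their log2 fold change in all 15 alternative settings. With the replicate block, which takes equal numbers as pairs, 154 genes were called in place of 112 (40 higher and 114 lower). Sst and Gal remained the members called, from which nothing is read because they were chosen on this contrast. The log2 fold change of Gal with the block was -1.17. Among the listed genes the block added calls of Mbp, Sox6, Lhfpl3 and Nefl and changed no other call. DESeq2 called 231 genes, 79 higher and 152 lower, in place of 112, 32 and 80. Fits without 1 library called 29 to 92 genes, 8 to 29 higher and 20 to 63 lower, with the lowest totals without cold-insensitive replicate 2 (29) and cold-sensitive replicate 2 (35). The number of members within the nearest 10% of genes to Sst was 3 to 5 without 1 library and 6 with a pseudocount of 0.5. The causes were not tested. Counting error limits the cold-sensitive values of Sst (7 to 12 reads), Nxph1 (5 to 85 reads) and Chodl (9 to 54 reads).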
